A study of Mus musculus with 6 samples.

Results

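Troponin is the calcium switch of striated muscle, and its 7 genes examined here were the slow, fast and cardiac forms Tnnt1, Tnni1, Tnnc1, Tnnt2, Tnnt3, Tnni2 and Tnnc2. They were taken by name: every probe set whose array annotation gives 1 of these symbols and no other was used. That gave 9 probe sets for 7 genes, of 8251 genes with such a probe set on the array. Tnnt1 and Tnnc2 had 2 probe sets each, and 0 probe sets named a member together with another gene.

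A troponin complex has 3 kinds of subunit. Troponin C binds calcium, troponin I holds actin and myosin apart at rest, and troponin T ties the complex to tropomyosin on the thin filament. Slow fibres use Tnnt1, Tnni1 and Tnnc1, fast fibres use Tnnt3, Tnni2 and Tnnc2, and heart uses Tnnt2, Tnni3 and the same Tnnc1. Embryonic and regenerating skeletal muscle is known to express Tnnt2 as well, and myoblasts switch troponin genes on as they differentiate.

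The RNA came from mouse C2AS12 myoblasts, which the labels describe as C2-derived. All were infected with adenovirus for p300, a histone acetyltransferase and coactivator. There were 3 treatments: virus for wild-type p300 (Adp300wt), the same virus with doxycycline, and virus for mutant p300 (Adp300mut). Each was sampled at 0 h, before differentiation medium (DM, low serum) was added, and after 24 h in it. The labels give neither the mutation nor the role of doxycycline, and no uninfected cells were analysed here. The submitters' design text gives survival for wild-type p300 alone and apoptosis for both other treatments. It calls the 6 arrays biological replicates, but each treatment and time has 1 array. Their number limits the precision, and p-values rest on the spread among these arrays alone, which may be technical.

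Signals are the deposited array intensities on a linear scale, and they do not rank one probe set's gene against another's. Trimmed mean signals lay between 199.3 and 199.96 on the 6 arrays. Signals below 16.4, the 25th percentile, were set to that floor before log2. Spike-in control signals, on the log2 scale relative to the mean of the arrays, were -0.18 in wild type, 0.13 under doxycycline and 0.23 in the mutant at 24 h, and -0.13 to -0.02 at 0 h. The ratio of 3' to 5' actin control signal was 1.33 in wild type, 1.45 under doxycycline and 1.49 in the mutant at 24 h, and 1.303 to 1.335 at 0 h. The part of either measure in the results below was not tested.

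All 7 skeletal muscle markers listed had a probe set, and 0 of them were under the floor on all arrays. Their summed signal ran from 2179 to 2448 at 0 h and from 3138 to 3773 at 24 h. Of 11 heart markers, 10 had a probe set and 5 were under the floor on all arrays, among them the atrial and ventricular genes Myh6, Myl7 and Myl2. Tnni3, cardiac troponin I, read between 5.5 and 24.5. Other heart markers were over the floor on every array: Nppa at 100.7 to 162.4, Gata4 at 112.7 to 200.7 and Nppb at 40.7 to 196.2. Nppb was highest in wild type at both times, at 111.6 and 196.2. The summed signal of the heart markers ran from 346.8 to 455.8 at 0 h and from 389.9 to 497.2 at 24 h, so the ranges overlapped. The 6 fibroblast markers summed to between 6207 and 8090 at 0 h and between 11185 and 11822 at 24 h, and the 6 smooth muscle markers to between 2545 and 3164 and between 3381 and 4616, with 1 and 2 of them under the floor on all arrays (Thy1, and Myh11 and Cnn1). The brightest genes carry such sums, as Acta2 does for smooth muscle and Col1a2, Col3a1 and Dcn for fibroblasts. Des is in both the skeletal and the smooth muscle list. Some markers of these 3 lists fell over 24 h. Myod1, Tagln and Col1a1 fell in wild type, Smtn under doxycycline, and Myf5 and Pdgfra under doxycycline and in the mutant. The part of these shifts in the troponin changes was not tested. In bulk RNA, more cells of a type and more RNA per cell cannot be told apart.

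The promoters of the 3 genes called over time, and of Tnnt2, which was not called, are shown to set the change beside the sequence in front of each gene. They are RefSeq windows of GRCm38.p6, each the 250 bases before the listed transcript start, 5′ to 3′ on the gene's own strand. Capitals mark each E-box (CANNTG, the core that myogenic factors bind) and each CATTCC or its reverse complement (the core of the MCAT element). Tnnt1 lies at chr7:4515976-4516225 (minus strand), Tnni1 at chr1:135799171-135799420 (plus strand, the first of 2 listed starts), Tnnc1 at chr14:31208062-31208311 (plus strand) and Tnnt2 at chr1:135836084-135836333 (plus strand, the first of 2 listed starts). The RefSeq model of Tnni1 also has transcripts that begin before its window.
Tnnt1: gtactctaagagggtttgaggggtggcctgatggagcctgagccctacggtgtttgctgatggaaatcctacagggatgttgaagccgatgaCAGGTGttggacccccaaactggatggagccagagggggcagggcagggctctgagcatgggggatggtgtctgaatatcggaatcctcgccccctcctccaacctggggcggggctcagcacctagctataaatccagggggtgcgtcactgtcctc
Tnni1: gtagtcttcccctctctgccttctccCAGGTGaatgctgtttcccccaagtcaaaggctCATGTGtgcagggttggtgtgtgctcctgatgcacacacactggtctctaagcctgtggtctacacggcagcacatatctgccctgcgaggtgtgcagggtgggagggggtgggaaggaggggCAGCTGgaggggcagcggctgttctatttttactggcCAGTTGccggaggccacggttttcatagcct
Tnnc1: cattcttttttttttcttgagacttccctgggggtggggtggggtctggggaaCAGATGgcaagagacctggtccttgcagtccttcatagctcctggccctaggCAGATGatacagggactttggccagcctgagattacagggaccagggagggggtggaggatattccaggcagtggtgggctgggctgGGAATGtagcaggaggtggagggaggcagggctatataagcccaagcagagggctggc
Tnnt2: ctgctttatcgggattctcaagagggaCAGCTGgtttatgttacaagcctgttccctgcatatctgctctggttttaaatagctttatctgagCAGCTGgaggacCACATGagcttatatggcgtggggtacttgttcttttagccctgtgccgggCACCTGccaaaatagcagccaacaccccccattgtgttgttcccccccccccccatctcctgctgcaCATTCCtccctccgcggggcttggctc

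Of the 7 genes, 5 had a promoter in the RefSeq table, in 7 windows. For Tnnt3 and Tnni2 no window was available there. The windows are not all distinct, since the 2 of Tnni1 share 160 bases and the E-boxes in them. All 7 held CANNTG, against 66.2% of 32851 windows of the same length over all genes. CATTCC, searched on both strands, was in 2 of the 7, those shown for Tnnc1 and Tnnt2, against 12.6% of all windows. The MEF2 consensus was in 0 of the 7 and in 2.92% of all windows. No motif overlapped another. In the windows shown, Tnnt1 had 1 E-box, first base 158 before the start, Tnni1 had 4, Tnnc1 2 and Tnnt2 4. The window of the second listed start had 2 for Tnni1 and 1 for Tnnt2, and that of Tnnc2 had 2. Which start these cells use was not measured. A match is a description of letters, not a site.

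Over 24 h in differentiation medium, 1 of the 2 probe sets of slow troponin T had the largest rise among the troponins, and the other was not called. Of the 5 probe sets bright enough to test, 3 rose and 0 fell by limma, those of Tnnt1 (1 of its 2), Tnnc1 and Tnni1. Over all 6212 probe sets tested, 7.24% rose and 9% fell. The median change of the 5 was 0.48 on the log2 scale, against 0.00 over all tested. Tnnt1 (161361_s_at) and Tnnc1 passed the filter, a mean signal of at least 75.2 over the 6 arrays, only through their 24 h arrays (mean at 0 h 62.6 and 51.2). The count of 3 among 5 and the median of the 5 therefore support nothing by themselves. The same limit holds for the ranks of these probe sets among all tested, given below as description. Cells held for 24 h in the first medium were not analysed here, so the effect of the medium and that of time cannot be told apart.

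Tnnt1, slow troponin T, was read by probe set 161361_s_at. Its signal at 0 h was 38.1 in wild type, 115.9 under doxycycline and 33.7 in the mutant. At 24 h it was 261.0 in wild type, 548.8 under doxycycline and 288.0 in the mutant. Every array at 24 h was above every array at 0 h, and the doxycycline array was the highest at both times. The rise was 6.85-fold, 4.74-fold and 8.55-fold in the same order of treatments, a mean log2 change of 2.70 ± 0.43 (SD, n = 3 treatments; 95% interval 2.27 to 3.14; limma adjusted p = 6.71e-05). This was the rise of rank 2 among the 6212 probe sets tested. Intervals here and below are limma's, which pool spread across probe sets, and do not follow from the SD beside them. With dim probe sets kept in, the call was lost (limma adjusted p = 0.0968), as 0 of 12422 were called. It held with each of the 3 treatments left out in turn.

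The other Tnnt1 probe set, 101383_at, was not called. In the order wild type, doxycycline, mutant it read 102.7, 108.2 and 100 at 0 h and 127.4, 167.1 and 87.5 at 24 h. The groups overlapped, and the mutant array was lower at 24 h than at 0 h. Its log2 change was 0.25 ± 0.41 (SD, n = 3; 95% interval -0.20 to 0.70; limma adjusted p = 0.442). The change read by 161361_s_at exceeded it by 2.47 in wild type, 1.62 under doxycycline and 3.29 in the mutant, a mean of 2.46 ± 0.84 (SD, n = 3). An exact permutation test by sign over 3 treatments cannot go below p = 0.25, and it gave that value here (2-sided), with the difference above 0 in 3 of 3 treatments. The name of 161361_s_at ends in _s_at, which marks probes shared by several transcripts, and its annotation lists no accession. Which transcripts it reads, and whether all are of Tnnt1, was therefore not given. Which Tnnt1 transcripts 101383_at reads was not given either.

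Tnni1, slow troponin I, is the inhibitory subunit of slow fibres. At 0 h the wild-type array read 204.7, the doxycycline array 185.0 and the mutant array 136.3. At 24 h the values were 285.3, 290.6 and 167.2 in that order. All 3 treatments rose, by 1.39-fold, 1.57-fold and 1.23-fold, yet the ranges at 0 h and 24 h overlapped, the mutant array at 24 h reading below both other treatments at 0 h. The mean log2 change was 0.48 ± 0.18 (SD, n = 3; 95% interval 0.18 to 0.77; limma adjusted p = 0.0391). The call was lost without wild type (adjusted p = 0.0564), without doxycycline (0.186) and without mutant p300 (0.0783), and under spike-in scaling (0.363).

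Tnnc1, the calcium-binding subunit of slow and heart muscle, read 28.8 at 0 h in wild type, 65.3 under doxycycline and 59.5 in the mutant. At 24 h it read 83.7, 135.6 and 100.3 in that order. Every array at 24 h was above every array at 0 h, and the wild-type array was the lowest at both times, though not at 24 h with scaling to the spike-in controls. The rise was 2.91-fold, 2.08-fold and 1.69-fold, a mean log2 change of 1.12 ± 0.40 (SD, n = 3; 95% interval 0.56 to 1.67; limma adjusted p = 0.0169). Its rise had rank 46 among the 6212 probe sets tested. The call was lost without doxycycline (adjusted p = 0.0796), without mutant p300 (0.0534) and without treatment as a block (0.0912).

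Tnnt2, cardiac troponin T, read 105.3 at 0 h in wild type, 85.2 under doxycycline and 69.3 in the mutant, and 103.9, 106.1 and 85.6 at 24 h. The groups overlapped, and the wild-type signal was nearly the same at both times. The log2 change was 0.20 ± 0.19 (SD, n = 3; 95% interval -0.23 to 0.63; limma adjusted p = 0.519). This interval lies below that of Tnnt1 read by 161361_s_at, 2.27 to 3.14, and nearly coincides with that of the other Tnnt1 probe set, -0.20 to 0.70.

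**Figure D1:**
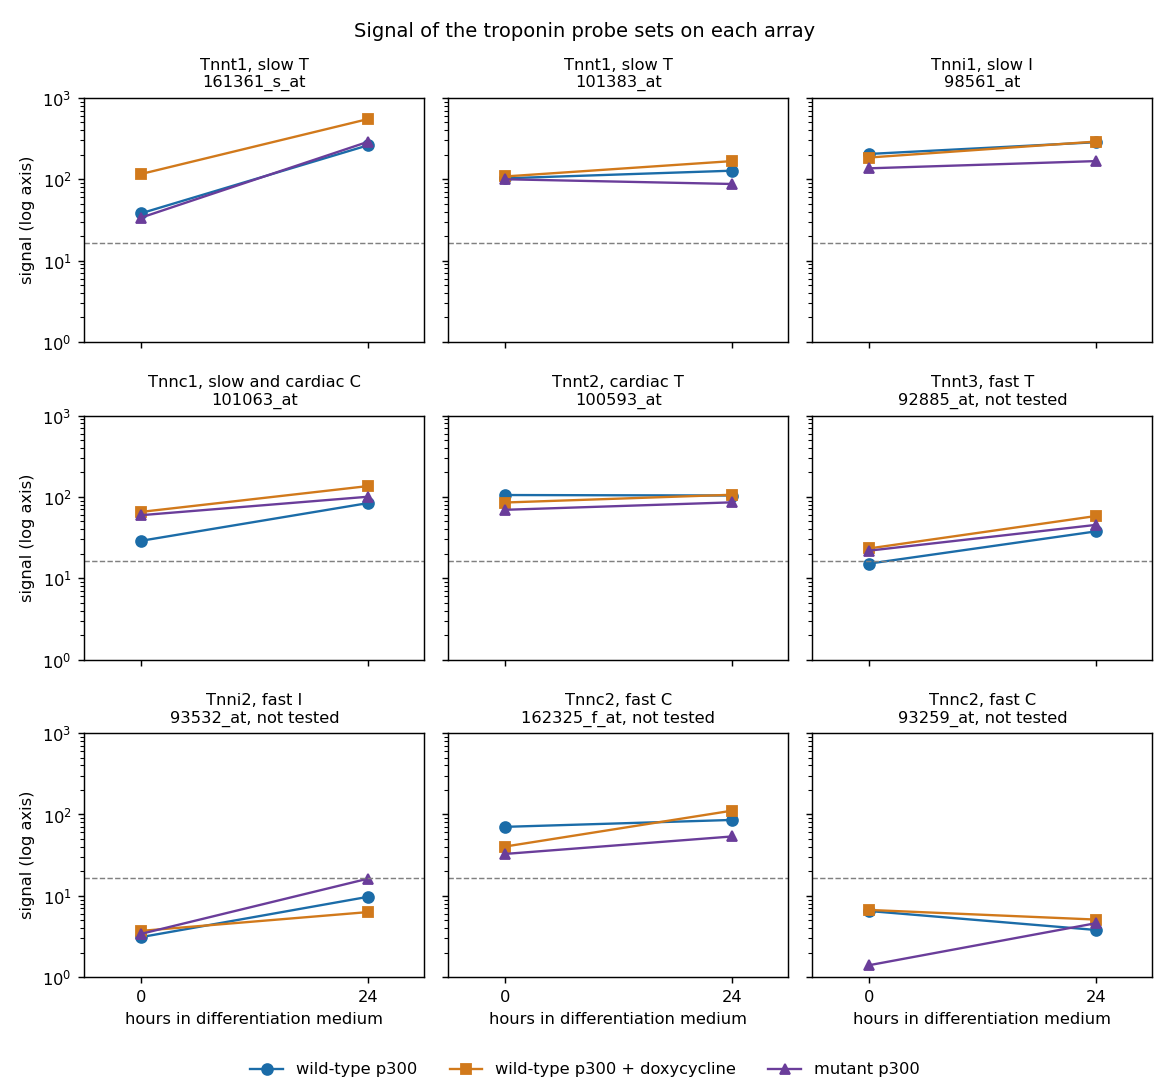
Signal on each array (vertical log axis) at 0 h and 24 h in differentiation medium, 1 panel per probe set, with a line for each treatment and a dashed line at the floor of 16.4. The Tnnt1 panel of 161361_s_at climbs from 33.7 to 115.9 at 0 h up to 261.0 to 548.8 at 24 h, while Tnni2 and the Tnnc2 probe set 93259_at stay under the floor.

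The fast genes were dim, and their 4 probe sets fell below the filter, so none was tested. Tnnt3, fast troponin T, read 15.1 at 0 h in wild type, 23.2 under doxycycline and 21.8 in the mutant, and 37.6, 58.1 and 45.2 at 24 h. Every array at 24 h was above every array at 0 h. The log2 change was 1.19 ± 0.14 (SD, n = 3), at least 2.29-fold with wild-type p300, whose 0 h signal was under the floor, 2.50-fold with doxycycline and 2.07-fold with mutant p300. In the fit without the filter, limma gave it adjusted p = 0.0901 (unadjusted p = 0.00104), where 0 of 12422 probe sets were called and 2030 had an unadjusted p under 0.05.

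Tnni2, fast troponin I, was under the floor on all 6 arrays, at 3.1, 3.7 and 3.4 at 0 h and 9.7, 6.3 and 16.2 at 24 h, so no change is given. The same holds for probe set 93259_at of Tnnc2, fast troponin C, which read between 1.4 and 6.7. A different Tnnc2 probe set, 162325_f_at, read 70.4, 40.3 and 32.7 at 0 h and 85.6, 111.2 and 53.6 at 24 h in that same order of treatments. All 3 treatments were higher at 24 h but the groups overlapped, and the log2 change was 0.82 ± 0.60 (SD, n = 3), with limma adjusted p = 0.405 in the fit without the filter. Its _f_at ending marks probes that can match a family of sequences. The pair of Tnnc2 probe sets therefore differed in whether any signal rose over the floor.

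Across the 7 probe sets over the floor on some array, 19 of 21 changes over 24 h were above 0, the exceptions being Tnnt2 with wild-type p300 and Tnnt1 (101383_at) with mutant p300. With scaling to the spike-in controls 18 of 21 were above 0, the exceptions being Tnnt1 (101383_at), Tnni1 and Tnnt2, all with mutant p300. The share of changes above 0 over all probe sets was not computed, and the 21 come from the same 6 arrays, so nothing is drawn from either count. In 3 of the 9 probe sets, those of Tnnt1 (161361_s_at), Tnnc1 and Tnnt3, every 24 h array was above every 0 h array after the floor, as in 8.28% of all 12422 probe sets. The same 3 stood apart with quantile normalization and with scaling to the spike-in controls.

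**Figure D2:**
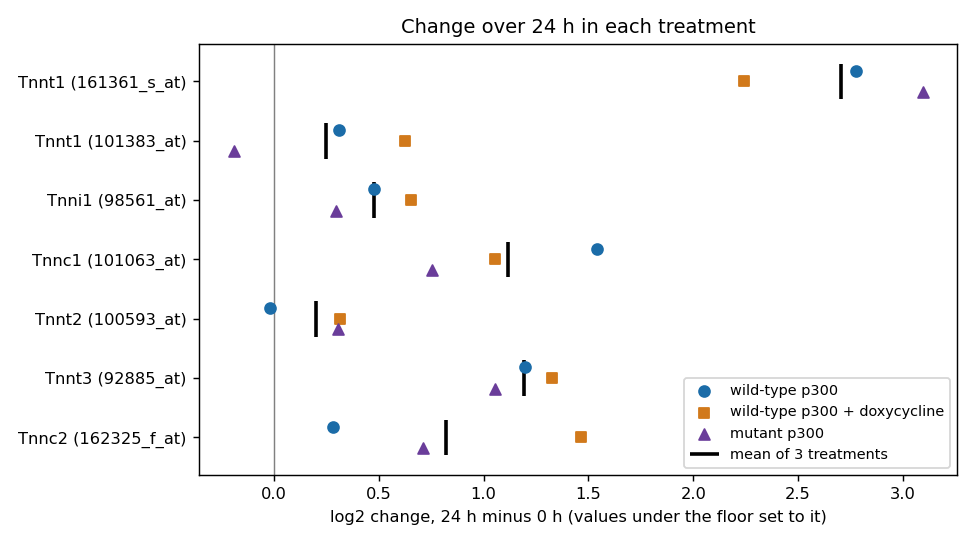
Change over 24 h on the log2 scale (horizontal axis) for the 7 probe sets over the floor on some array, with a point for each treatment and a black bar at their mean. Tnnt1 (161361_s_at) lies at 2.24 to 3.10 and Tnnt3 at 1.05 to 1.32, while Tnnt1 (101383_at) spans 0.

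**Figure D3:**
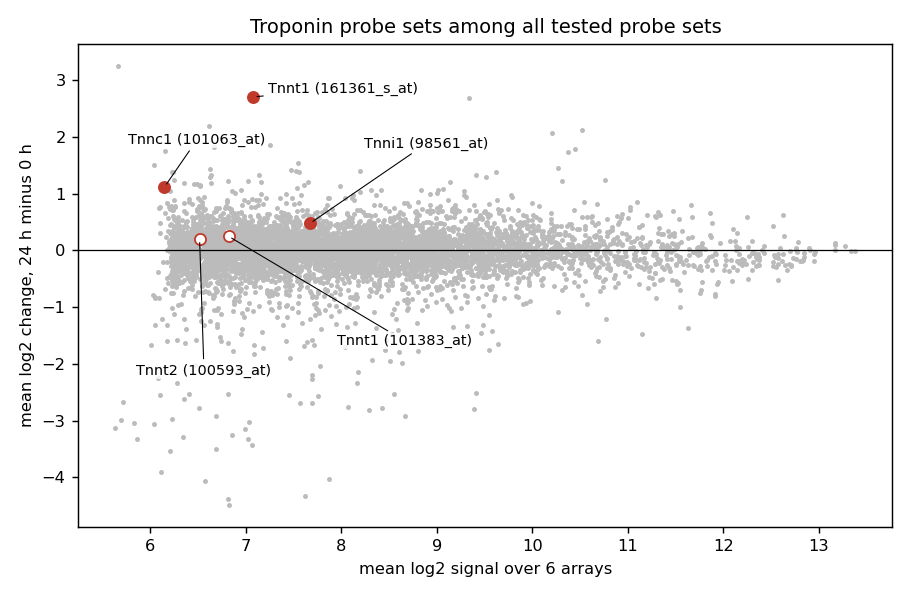
Mean log2 change over 24 h (vertical axis) against mean log2 signal over the 6 arrays (horizontal axis) for the 6212 probe sets tested in grey, with the 5 troponin probe sets circled in red, filled where called by limma. Tnnt1 (161361_s_at) at 2.70 and Tnnc1 at 1.12 lie at the upper edge of the cloud.

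The mean changes fell in the order Tnnt1 (161361_s_at), Tnnt3, Tnnc1, Tnnc2 (162325_f_at), Tnni1, Tnnt1 (101383_at) and Tnnt2. Only the first stood clear of its neighbour in every treatment: its lowest change, 2.24, was above the highest of Tnnt3, 1.32. Each later pair of neighbours in this order overlapped between treatments.

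The comparison of wild-type p300 with the doxycycline and mutant arrays asked whether troponin signal goes with survival. By limma, 0 of the 5 tested probe sets were called at 24 h, and 0 had an unadjusted p under 0.05. Over all 6212 tested, 0.724% were called higher and 0.0483% lower in wild type, and 713 had an unadjusted p under 0.05. For Tnnt1 (161361_s_at) the difference at 24 h was -0.61 on the log2 scale (95% interval -2.07 to 0.86; limma adjusted p = 0.797), and it moved to -0.14 without the doxycycline array and to -1.07 without the mutant array. For Tnnc1 it was -0.48 (-1.40 to 0.44; adjusted p = 0.732), and -0.26 and -0.70 without those arrays. The difference was 0.37 for Tnni1 (-0.40 to 1.15; 0.756), 0.12 for Tnnt2 (-0.66 to 0.91; 0.939) and 0.08 for Tnnt1 read by 101383_at (-0.82 to 0.97; 0.972). The intervals of Tnnt1 (161361_s_at) and Tnnc1 reach past 2-fold lower in wild type and that of Tnni1 past 2-fold higher, so differences of that size are not excluded by them. Wild type has a single array at each time, and the fit takes its spread from the doxycycline and mutant arrays.

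At 0 h, limma called 0 of the 5 and 0% of the 6212, of which 262 had an unadjusted p under 0.05. Among the 5, that held for 1, Tnnc1, which was 1.11 lower in wild type on the log2 scale (difference -1.11, 95% interval -2.03 to -0.19; unadjusted p = 0.0231; limma adjusted p = 0.999). Tnnc1 in wild type was 0.441 times its signal with doxycycline and 0.484 times that with mutant p300. For Tnnt1 (161361_s_at) the difference was -0.71 (-2.18 to 0.75; adjusted p = 0.999), and the doxycycline array alone stood apart, 3.04-fold above wild type and 3.44-fold above mutant p300. Without the doxycycline array at 0 h this difference was 0.18 (limma adjusted p = 0.9995), and without the mutant array it was -1.61 (adjusted p = 0.00566). The latter sets 1 array against 1 array, its only spread coming from the 24 h pair of doxycycline and mutant, so nothing is drawn from its call.

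The interaction asked whether the change over 24 h differed between wild type and both other treatments. It was called for 0 of the 5 and for 0% of the 6212 (197 at an unadjusted p under 0.05, 0 of them troponins). It was 0.64 for Tnnc1 (95% interval -0.67 to 1.94), -0.33 for Tnnt2 (-1.44 to 0.78), 0.11 for Tnnt1 read by 161361_s_at (-1.97 to 2.18), 0.09 for 101383_at (-1.18 to 1.36) and 0.01 for Tnni1 (-1.09 to 1.10), each with limma adjusted p = 1.0. A rise of Tnnt1 in wild type that differed 2-fold from the others would lie within its interval.

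**Figure D4:**
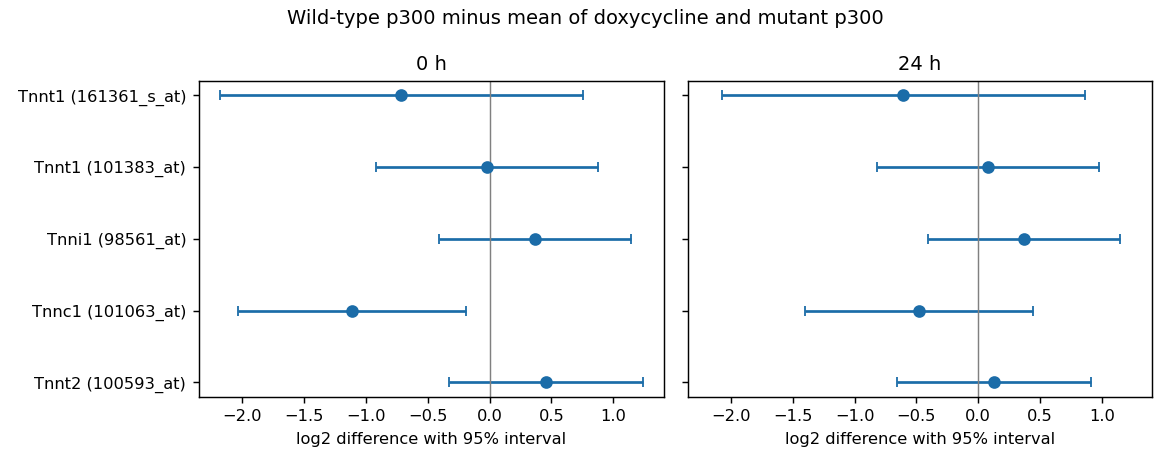
Log2 difference of wild-type p300 from the mean of doxycycline and mutant p300 (horizontal axis) at 0 h and at 24 h for the 5 tested probe sets, with limma's 95% interval. All intervals span 0 except that of Tnnc1 at 0 h, from -2.03 to -0.19, whose adjusted p was 0.999.

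Doxycycline and mutant p300, both given as apoptotic, had 1 array each and were compared without a test. At 24 h the doxycycline array was the highest of the 3 for all 7 probe sets over the floor, a pattern picked after the values were seen, against 39.6% of 10524 probe sets over the floor on some array. With quantile normalization this held for 6 of 7, without Tnnt2, and with scaling to the spike-in controls for 5 of 7, without Tnnt2 and Tnni1. Doxycycline exceeded mutant p300 at 24 h by 1.91-fold for each Tnnt1 probe set, 2.07-fold for Tnnc2 (162325_f_at), 1.74-fold for Tnni1, 1.35-fold for Tnnc1, 1.29-fold for Tnnt3 and 1.24-fold for Tnnt2. Against wild type at 24 h the doxycycline array was 2.10-fold higher for Tnnt1 (161361_s_at), 1.62-fold for Tnnc1 and 1.55-fold for Tnnt3, but 1.02-fold for both Tnni1 and Tnnt2. Mutant p300 was the lowest of the 3 at 24 h for Tnni1, Tnnt2, Tnnc2 (162325_f_at) and Tnnt1 (101383_at), and wild type was the lowest for Tnnt1 (161361_s_at), Tnnc1 and Tnnt3. With scaling to the spike-in controls this turned: mutant p300 was the lowest at 24 h for all 7, and wild type for 0. This scaling lowers the whole mutant array at 24 h and raises the whole wild-type array (spike-in values 0.23 and -0.18). The share of all probe sets with either array lowest was not computed, so the turn is not a result about troponins.

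Troponin T and I genes lie in pairs in the mouse genome (order from the RefSeq annotation of GRCm38.p6). Tnnt1 on chromosome 7 is next to Tnni3, with 0 genes between, Tnni1 and Tnnt2 on chromosome 1 have 1 gene between, Lad1, and Tnni2 and Tnnt3 on chromosome 7 have 2, Lsp1 and Prr33. Differences within a pair were not tested. For Tnni1 and Tnnt2 the log2 changes were 0.48 (95% interval 0.18 to 0.77) and 0.20 (-0.23 to 0.63), with overlapping intervals. For the other pairs, Tnni3 read between 5.5 and 24.5 and Tnni2 was under the floor, so no change is set beside those of Tnnt1 and Tnnt3.

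Filament genes moved the same way in part. Of 54 genes listed for the thin and thick filaments, 41 had a probe set and 21 were tested. By limma 8 rose, 0 fell and 13 did not pass (median change 0.20), beside 7.24% that rose and 9% that fell over all tested probe sets. The 8 include Acta2 and Des, which are also smooth muscle markers above, so not all are partners of troponin. The lists here and in the next paragraph were chosen with earlier results of these data known. They count each gene by a single probe set, so nothing is drawn from their counts beside those shares. Myl1, an alkali light chain of fast myosin, rose by 2.68 ± 0.50, Acta1, skeletal actin, by 1.15 ± 0.36 and Actn3, the alpha-actinin of fast fibres, by 1.07 ± 0.29 (SD, n = 3 treatments). A second Actn3 probe set missed the threshold, at 0.52 ± 0.17 (limma adjusted p = 0.0571). A further pair is named after its values were seen: Tpm2, a tropomyosin, the protein that troponin T binds, rose by 0.78 ± 0.16, and Mylpf, the fast regulatory light chain, by 0.64 ± 0.33 (limma adjusted p = 0.0477). Each had a second probe set too dim to test that did not show the rise: that of Tpm2 changed by -0.12 ± 0.53, and that of Mylpf, under the floor on 5 of 6 arrays, by 0.07 ± 0.11.

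Of 25 genes of calcium release and uptake, 14 had a probe set and 11 were tested, of which 3 rose, 0 fell and 8 did not pass (median 0.23), beside the same 7.24% and 9%. Ryr1, the calcium release channel, rose by 1.91 ± 0.31, Atp2a1, the calcium pump of fast fibres, by 1.04 ± 0.21 and Ryr3, another release channel, by 0.57 ± 0.21. A list of 28 myogenic and fibre type regulators also held Cdh15, Itga7 and Chrna1, which are muscle markers rather than regulators. Of the 28, 23 had a probe set and 15 were tested. By limma 7 rose, Itga7 and Chrna1 among them, 0 fell and 8 did not pass (median 0.45), again beside 7.24% and 9%. Ryr1 and Myog, 1 gene in each of these lists, had a mean signal at 0 h below the filter and were tested through their 24 h arrays, so the filter has a part in both counts. Myog, the driver of late differentiation, rose by 2.20 ± 0.04, Six4 by 0.92 ± 0.21 and Chrna1, a subunit of the acetylcholine receptor, by 0.89 ± 0.27. A second tested probe set of Six4 was not called, at 0.40 ± 0.88. In all 3 lists, limma called 0 genes between wild type and the other treatments at 24 h, beside 0.724% higher and 0.0483% lower over all tested.

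**Figure D5:**
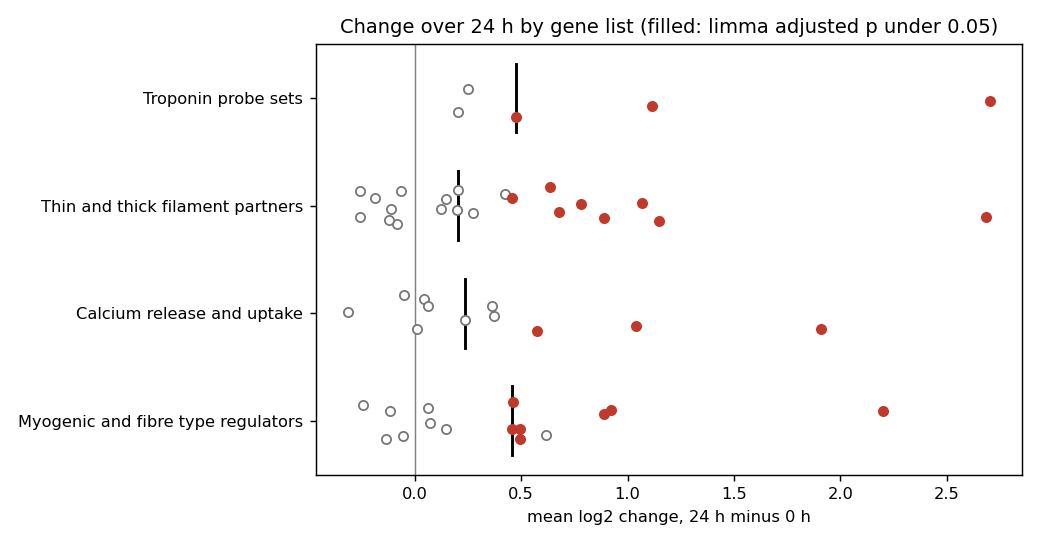
Mean log2 change over 24 h (horizontal axis) of the 5 tested troponin probe sets and of each tested gene in 3 lists, with filled points where limma called the change and a black bar at the median. Tnnt1 at 2.70 and Myl1 at 2.68 are farthest right, and the medians lie between 0.20 and 0.48.

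Probe sets of other genes with the most similar profile were found by Pearson correlation of log2 signal over the 6 arrays, among 991 tested probe sets with a range of at least 2-fold. The arrays share the 2 times, so genes that changed over time are alike for that alone, and no p is given. For Tnnt1 (161361_s_at) they were Myl1 (r = 0.989), Ryr3 (0.989, its second probe set) and Ryr1 (0.984). Myl1 read 210.0, 445.5 and 177.4 at 0 h and 1093.5, 2374.4 and 1697.8 at 24 h, with the doxycycline array highest at both times as for Tnnt1. For Tnnc1 they were Serinc3 (0.986), the growth factor gene Igf2 (0.972) and the acetyltransferase gene Kat2b (0.970). For Tnni1 they were Thbd, thrombomodulin (0.994), Angpt1, angiopoietin (0.981), and Adam3 (0.952), and for Tnnt2 Csf3 (0.979), Bad (0.965) and Gstm5 (0.961). Tnnt2 itself read only 69.3 to 106.1, less than the 2-fold range asked of the others, and was not called over time. The highest of 991 correlations over 6 arrays are high in part because they were picked. The lists for the 4 genes shared 0 names.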

How the data were processed

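Biotin-labelled total RNA of 6 cultures was measured on 6 arrays. The deposited values are intensities per probe set on a linear scale; MAS5 is named per the submitters' processing notes, with no version. Trimmed means (percentiles 2 to 98) lay within 5% of each other, so no further scaling was applied. Without 66 control probe sets, 12422 were left, and the 6212 with a mean signal at or above the median of these means (75.2) were tested. Values under 16.4 were raised to it before log2.

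limma 3.58.1 in R 4.3.3 (lmFit, eBayes with a variance trend, 2-sided) was fitted across all tested probe sets, with Benjamini-Hochberg adjustment and calls at an adjusted p under 0.05. Time was fitted with treatment as a block. Outcome effects and their interaction came from 1 mean per outcome and time. Both fits had 2 residual degrees of freedom. Alternatives changed the filter, floor, scaling, variance trend and block, and left out arrays.

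Members and lists were chosen with earlier results of these data known. All member probe sets are reported. From each list the 3 called genes with the largest change are named, and for like profiles the 3 with the highest correlation. Tpm2 and Mylpf were added after their values were seen. The brightest tested probe set stood for a listed gene. Gene names came from the array annotation and RefSeq GRCm38.p6.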

Additional observations from a re-analysis of the deposited data

How the results depend on the processing

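Over time, limma called 1009 probe sets: 0 without the filter on dim probe sets (1955 with the filter and 2030 without it had an unadjusted p under 0.05), 619 with scaling to spike-in controls (141 higher, 478 lower, against 450 and 559; median of all -0.12), and 514 with no replicate block, that is with treatment left out of the fit. Leaving out 1 treatment gave 470 (without mutant p300) to 1275. At 24 h between outcomes it called 48: 192 without the filter, 426 with spike-in scaling (420 higher, 6 lower; median shift 0.32), 11 with no variance trend, and 200 to 351 without the doxycycline or the mutant array. At 0 h it called 0: 126 without the filter, 5 with spike-in scaling and 18 to 24 without 1 array. The interaction was called for 0: 245 without the filter, 1 with spike-in scaling and 6 to 43 without 1 array, an alternative chosen after seeing the data. The causes were not tested.

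Of 168 alternative values for single troponin probe sets, 143 kept direction and call, 12 lost a call, 1 gained one and 12 changed sign, 0 of the latter over time. The main fits called only the time effects of Tnnt1 (161361_s_at), Tnnc1 and Tnni1, so only those could lose a call. The 143 include differences called neither in the main fit nor in the alternative, and are no measure of how firm the calls are. With the stricter filter, a mean signal of at least 124.2, Tnnc1 (mean 78.9) was not tested. Tnnt1 (161361_s_at) lost its call over time only without the filter; Tnnc1 and Tnni1 also lost it there (adjusted p = 0.214 and 0.202), and Tnni1 with no variance trend (0.0584) and no block (0.284). Among differences that were not called, leaving out 1 array gave, at 24 h, Tnnt2 -0.030 to 0.28, Tnnt1 (101383_at) -0.39 to 0.54 and Tnni1 -0.027 to 0.77. At 0 h it gave Tnnt1 (101383_at) -0.075 to 0.038 and Tnnt1 (161361_s_at) -1.61 to 0.18. For the interaction it gave Tnnt1 (101383_at) -0.37 to 0.56, Tnnt1 (161361_s_at) -0.78 to 0.998 and Tnni1 -0.39 to 0.40. The interaction was -0.0014 for Tnnt1 (161361_s_at) with a pseudocount in place of the floor and 0.081 for Tnnt2 with spike-in scaling. The labels number no replicates, so arrays were paired over time by treatment, named in the titles, as the block. The interaction without a whole treatment was not run, as no residual degrees of freedom are left.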
